A study of Mus musculus with 14 samples.

Results

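Sorted macrophages of p110g-/- tumors were set against whole p110g-/- tumors, to describe which transcripts of the knockout tumor lay in the macrophages and which in its other cells. Of the 14 libraries of the series, 7 belong here by their labels: 4 of sorted cells and 3 of whole tumor. Tumors of the Lewis lung carcinoma (LLC) line, a mouse lung cancer, had grown for 14 days in the flanks of p110g-/- mice on the C57BL/6 background. These mice lack PI3K gamma, whose catalytic subunit p110 gamma is encoded by Pik3cg, while the injected carcinoma cells come from the line and not from the host. RNA came from 30 mg pieces of tumor or from 1000000 flow-sorted CD11b+Gr1- cells, which the labels call tumor-associated macrophages (TAM). The same 2 kinds of library from wild-type (WT) C57BL/6 mice, 4 TAM and 3 whole tumor, were used for the difference between genotypes only. Nothing in the labels says that a library is a separate animal or that a TAM library and a tumor library came from the same animal.

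A tumor is a mixture of carcinoma cells, macrophages, lymphocytes, blood vessels and fibroblasts, and its bulk RNA is the sum over all of them. CD11b, the integrin alpha M chain, marks myeloid cells, and the Gr1 antibody binds Ly6G on neutrophils and Ly6C on inflammatory monocytes, so CD11b+Gr1- cells are mostly macrophages and related cells. Tumor macrophages take up debris, present antigen through MHC class II, and can restrain T cells through arginase, TGF-beta and checkpoint ligands. PI3K gamma is a lipid kinase of leukocytes that acts downstream of G protein-coupled receptors, and its loss has been studied as a way to make tumor macrophages less suppressive.

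Levels are deposited units per 1000000 (CPM) of each library's own column total, and the genes' lengths are not taken into account, so levels are compared between libraries and not between genes. The authors normalized the TAM table and the tumor table separately. No test was therefore run between TAM and tumor, and 4 libraries against 3 could not reach an exact two-sided permutation p below 0.0571. A gene was counted as higher on one side when the ratio of mean CPM was at least 2 and the libraries of the 2 groups did not overlap. In bulk RNA, fewer cells of a type and less RNA per cell cannot be told apart.

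Several features of the libraries stood apart from the labels or moved with the sort, and they bear on every value below. Estimated reads in genes were 19.7 to 40.2 M for the TAM and 32.1 to 43.4 M for the tumors, so 3 reads were worth 0.0692 to 0.152 CPM. Mitochondrial transcripts made up 2.73% and 3.21% of TAM libraries 1 and 2, 9.01% and 14.4% of libraries 3 and 4, and 2.49% to 3.01% of the tumors. Libraries 3 and 4 also lay closer to the tumors (Pearson r across genes 0.867 to 0.907 with single tumors, against 0.740 to 0.837 for libraries 1 and 2). The 4 Y-linked genes of the tables separated the 2 kinds of library. Ddx3y, an RNA helicase gene on the Y chromosome, was at 106, 64.9, 69.5 and 62.9 CPM in TAM and 0.147, 0.116 and 0.113 CPM in whole tumors. Eif2s3y held 2948, 2043, 1889 and 2027 deposited units in the TAM but 1, 1 and 0 in the tumors. The summed level of the 4 genes was 156 to 262 CPM in TAM and 1.80 to 2.45 CPM in tumors, and the WT libraries had the same division (140.0 to 224 and 1.81 to 2.24 CPM). Macrophage markers, by contrast, stood in the tumors at a median of 22.1% of their TAM level. The labels give no sex, and the reason for the Y-linked values was not tested. For other genes, a difference between the animals behind the 2 kinds of library cannot be told apart from a difference between macrophages and the rest of the tumor.

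Of 12924 genes joined between the tables, 12775 reached 10 deposited units in at least 3 of the 7 libraries. A gene that reached this minimum only in TAM or only in tumors could be counted only on that side. Among the genes kept, 1442 were higher in TAM (11.3%) and 3128 higher in whole tumor (24.5%), and 479 and 1504 differed by at least 4-fold. Counts of list members below are to be read against 11.3% and 24.5%. Without the fold limit, 21.8% of genes had every TAM library above every tumor and 50.8% every tumor above every TAM library. Genes higher in TAM made up 21.7% to 27.2% of TAM transcripts and 5.90% to 7.91% of tumor transcripts. Genes higher in tumor made up 20.9% to 22.5% of tumor transcripts and 5.49% to 8.13% of TAM transcripts. The remaining 8205 genes carried 67.3% to 71.6% of the transcripts in every library, so most RNA of both kinds came from genes that passed neither count. The median log2 ratio of all kept genes was −0.34, and list medians below are to be read against it. This centre depended on the scaling: it was −0.02 with median-of-ratios size factors, −0.12 with upper-quartile scaling and 0.06 on the deposited units. The share of counted genes that were higher in TAM was 31.6%, and 47.4%, 42.4% and 51.0% under those scalings. All 1442 genes higher in TAM were also counted under each of the 3, and 2265, 2464 and 2114 of the 3128 on the tumor side.

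**Figure D1:**
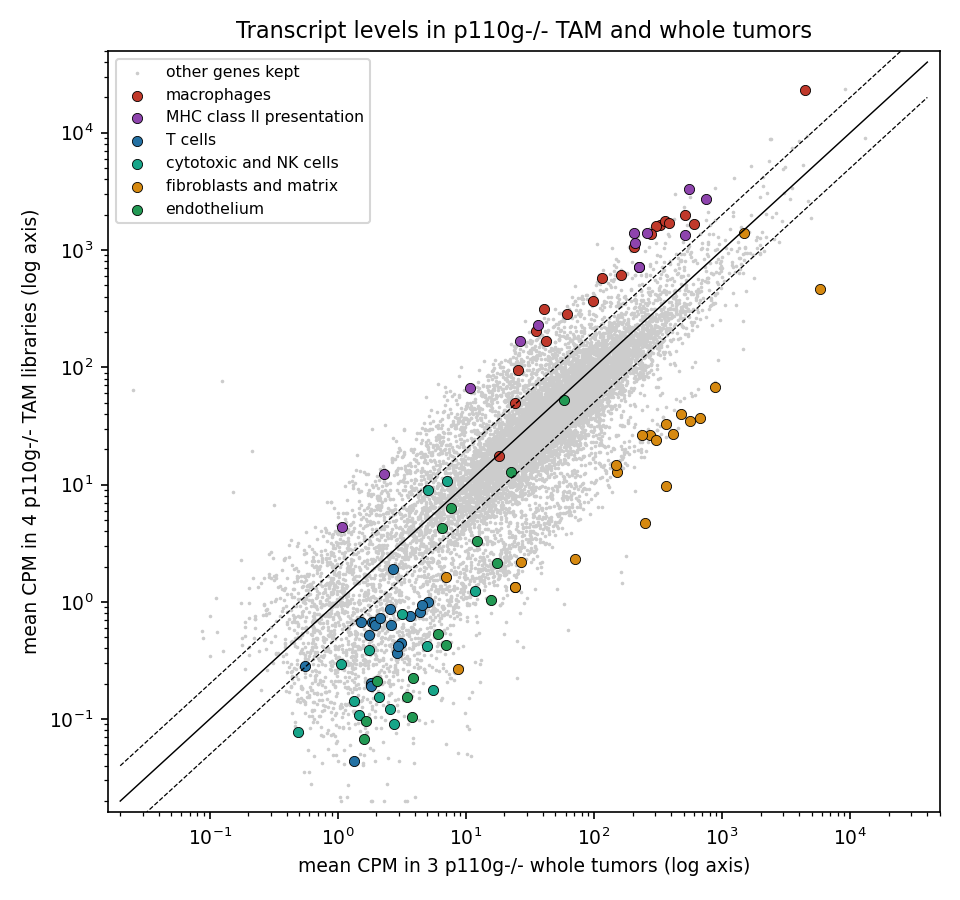
Mean CPM of each kept gene in the 3 p110g-/- whole tumors (x, log axis) against the 4 p110g-/- TAM libraries (y, log axis), with the solid line at equality and dashed lines at 2-fold; coloured points are members of 6 gene lists and values under 0.02 are drawn at 0.02. Macrophage and MHC class II genes lie above the upper dashed line except for Cd163, while nearly all fibroblast, T cell and cytotoxic genes lie below the lower one.

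Pik3cg, the targeted gene, still gave reads in every p110g-/- library. It was at 65.8, 64.7, 35.1 and 36.7 CPM in TAM and 8.89, 10.8 and 15.7 CPM in whole tumors, a 4.29-fold difference with no overlap. WT libraries held 109, 134, 92.3 and 81 CPM in TAM and 17.9, 22.6 and 19.1 CPM in tumors, so every p110g-/- library was below every WT library of its kind. The test found no difference of the contrast between genotypes (difference of the log2 contrast, p110g-/- minus WT, −0.20, SE 0.36, limma adjusted p = 0.999). Which exons the null allele lacks was not analysed here. Subunits known from leukocytes were also higher in TAM. Of 10 genes, the class I PI3K subunits and the adaptor Pik3ap1, 5 were higher in TAM and 2 in tumor. Pik3ap1 was among the 5. Of all kept genes, 11.3% were higher in TAM and 24.5% in tumor. Pik3r5, the p101 regulatory subunit that joins p110 gamma to G protein beta-gamma, was at 288, 234, 189 and 168 CPM in TAM and 43.8, 65.9 and 65.2 CPM in whole tumors. Pik3r6, the alternative p84 regulatory subunit, was at 49.9, 41.9, 29.6 and 31.4 CPM in TAM and 3.45, 5.91 and 6.19 CPM in whole tumors (7.37-fold). Pik3cd, the p110 delta catalytic subunit of leukocytes, differed by 3.32-fold. In the other direction Pik3r2, the broadly expressed p85 beta subunit, was 2.53-fold higher in tumor.

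The sorted cells carried the transcripts of macrophages. Of 20 macrophage markers, 19 were higher in TAM, with a median log2 ratio of 2.18. The exception was the haemoglobin scavenger receptor Cd163, at a log2 ratio of −0.03. Itgam, which encodes the CD11b used in the sort and so is no finding, was at 2449, 1585, 1481 and 1267 CPM in TAM and 330.4, 349 and 467 CPM in whole tumors. Adgre1, the F4/80 antigen, was at 402, 399, 363 and 296 CPM in TAM and 74.7, 97.4 and 124 CPM in whole tumors, and every TAM library exceeded every tumor. Csf1r, the receptor that macrophages need for survival, was at 1964, 2065, 1321 and 1173 CPM in TAM and 246, 359 and 374 CPM in whole tumors (5-fold). Its lowest TAM library, number 4, still lay above the highest tumor. C1qa, the first complement chain and a product of tissue macrophages, was at 1511, 2082, 1422 and 1369 CPM in TAM and 240.3, 297 and 384 CPM in whole tumors (5.2-fold). Cx3cr1, the fractalkine receptor, had the largest ratio of the list (7.61-fold), at 470.4, 362, 205 and 206 CPM in TAM and 19.5, 50.1 and 53.1 CPM in whole tumors. Lyz2, lysozyme M, was 5.22-fold higher in TAM, although reads shared with its near-copy Lyz1 make its value uncertain.

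**Figure D2:**
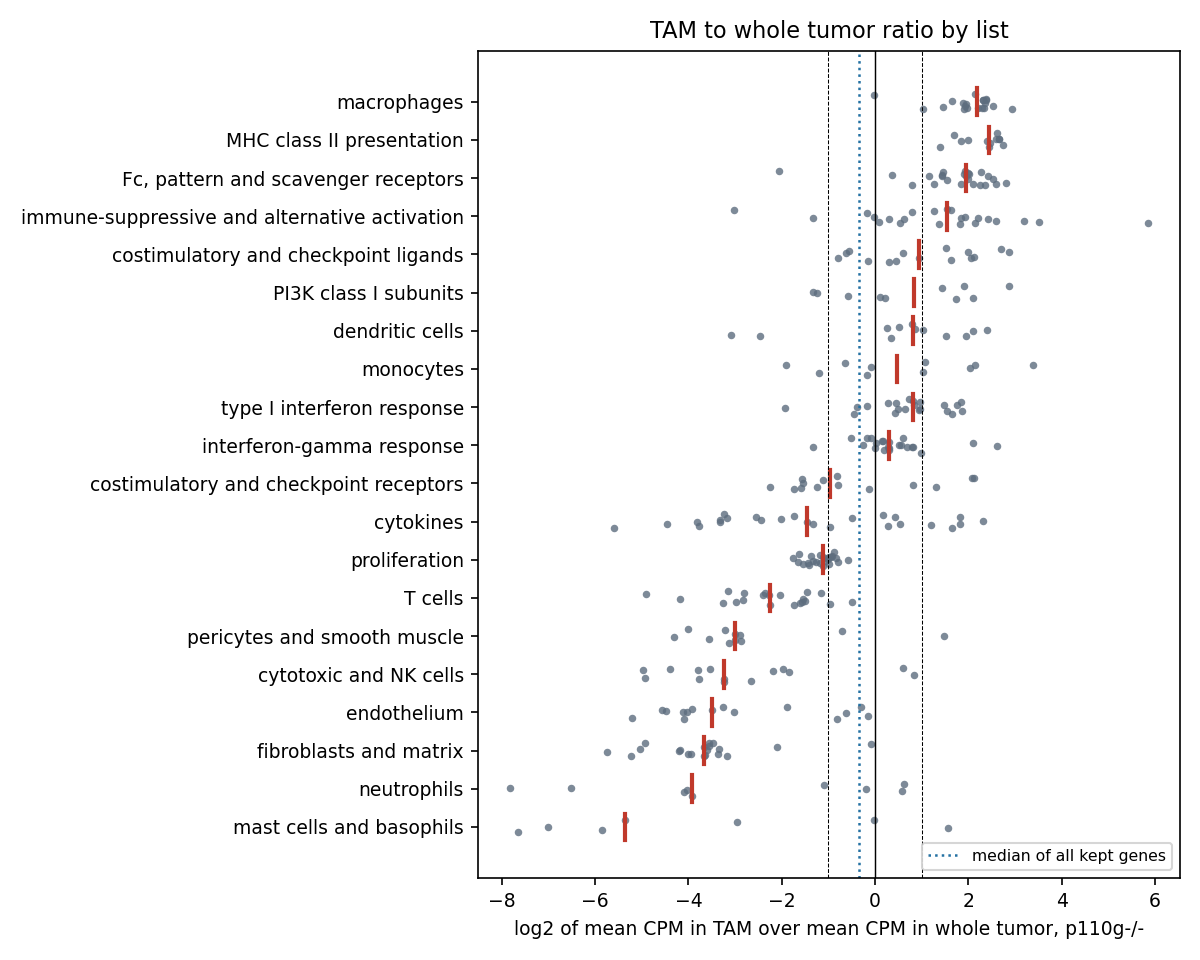
Log2 ratio of mean CPM in p110g-/- TAM over p110g-/- whole tumor for the kept members of 20 gene lists. Each point is a gene, each red bar the list median, dashed lines mark 2-fold and the dotted line the median of all kept genes at −0.34; macrophage (2.18) and MHC class II (2.45) medians stand on the TAM side and fibroblast (−3.66) and neutrophil (−3.92) medians on the tumor side.

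All 12 genes of MHC class II presentation were higher in TAM, with a median log2 ratio of 2.45, against 11.3% of all kept genes. H2-Aa and H2-Ab1 encode the alpha and beta chains of I-A, the molecule that shows peptides to CD4 T cells. H2-Aa was at 1288, 2034, 1099.9 and 1161 CPM in TAM and 179.8, 291 and 302 CPM in whole tumors (5.42-fold). H2-Ab1 was at 1155, 2036, 1113 and 1245 CPM in TAM and 137, 228 and 254 CPM in whole tumors (6.72-fold). In both genes TAM library 2 was the highest and tumor 1 the lowest. H2-DMb1, a chain of the chaperone that loads peptides, differed by 6.29-fold, at 184, 364, 178 and 192 CPM in TAM and 26.9, 38.9 and 43.7 CPM in whole tumors. Ciita, the transactivator that switches the class II chain genes on, was at 79.6, 108, 36.3 and 40.5 CPM in TAM and 5.77, 13.2 and 13.4 CPM in whole tumors (6.13-fold), so the regulator and these chain genes lay on the same side. The count stayed at 12 of 12 under each scaling and without TAM libraries 3 and 4.

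The promoters of the MHC class II chain genes in this list are known for a shared X and Y box module, to which the RFX and NF-Y factors bind and through which CIITA acts. RefSeq promoter windows (GRCm38.p6, a later build than the mm9 used for the counts) were present for 9 of the 12 genes, H2-Ab1 and Ciita not among them. The 250 bases before each start were searched for the X core CTNGNAAC followed on the gene's strand by the Y core TGATTGG, 2 to 27 bases further on. Both cores in this arrangement were found in 4 of the 9 genes, and in 14 of all 32851 windows (0.0426%). Taken alone and on both strands, the X core was in 10.9% and the Y core in 7.23% of all windows. The 4 stretches are shown because they carry the module in the genes that separated macrophages from the tumor. They are written 5′ to 3′ on the gene's strand, with the X core and the Y core in capitals.
H2-Aa (chr17:34287857-34287917, - strand): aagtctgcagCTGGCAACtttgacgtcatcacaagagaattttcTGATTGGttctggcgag
H2-DMb1 (chr17:34153084-34153144, + strand): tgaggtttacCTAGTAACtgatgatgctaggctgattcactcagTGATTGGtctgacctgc
H2-Eb1 (chr17:34305763-34305822, + strand): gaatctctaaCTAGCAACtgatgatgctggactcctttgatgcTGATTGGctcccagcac
H2-Ob (chr17:34238805-34238862, + strand): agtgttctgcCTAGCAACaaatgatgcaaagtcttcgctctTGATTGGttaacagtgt
The X core begins 84, 97, 94 and 90 bases before the start, and the Y core 50, 63, 61 and 59 bases before it. H2-Oa held the Y core only, 45 bases before its start, and H2-DMa, Ctss, Ifi30 and Lgmn held neither letter string in their windows. All 5 were nevertheless counted as higher in TAM. A match describes the letters and not the binding of a factor.

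Receptors by which macrophages sense their surroundings followed the same side. Of 24 Fc, pattern and scavenger receptor genes, 21 were higher in TAM and 1, the scavenger receptor Marco, in tumor. The count in tumor was 0 with median-of-ratios factors, with upper-quartile scaling and on the deposited units. Fcgr2b, the inhibitory Fc gamma receptor, was at 1528, 1515, 1105 and 1149 CPM in TAM and 160.3, 206 and 289 CPM in whole tumors (6.06-fold). Clec4n, which encodes the fungal sensor dectin-2, was at 309.6, 501, 549.6 and 624 CPM in TAM and 77.7, 52.4 and 82.8 CPM in whole tumors (6.99-fold). Stab1, stabilin 1, a scavenger receptor, differed by 5.32-fold. Among chemokine receptors, 5 of 18 were higher in TAM and 5 in tumor, the latter close to the 24.5% of all kept genes. Ccr8, among the latter, passed the minimum through the tumors alone, at 2, 0, 6 and 2 deposited units in TAM. Ccr2, the receptor that draws monocytes into tissue, was at 2073, 1175, 603 and 615 CPM in TAM and 65.8, 109 and 144 CPM in whole tumors (10.5-fold), with libraries 1 and 2 well above 3 and 4. On the tumor side was Cxcr2, the receptor of neutrophil chemokines, at 3.05, 0.556, 1.07 and 1.83 CPM in TAM and 30.5, 16.8 and 26.8 CPM in whole tumors.

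Genes linked to immune suppression and alternative activation were more often higher in TAM. Of 23 kept members, 13 were higher in TAM and 1 in tumor. Ccl17, among the 13, passed the minimum through TAM alone, at 3, 4 and 5 deposited units in the tumors. Arg1, arginase 1, which depletes arginine, was at 2154, 1998, 1544 and 1694 CPM in TAM and 409, 356 and 496 CPM in whole tumors (4.4-fold). Mgl2, a galactose-binding lectin of alternatively activated macrophages, was at 26.3, 71.2, 63.2 and 63.6 CPM in TAM and 3.12, 4.79 and 6.75 CPM in whole tumors (11.5-fold). Ccl22, a chemokine that attracts regulatory T cells, was at 14.7, 17.5, 27.9 and 39.7 CPM in TAM and 2.39, 2.43 and 3.32 CPM in whole tumors (9.2-fold). Tgfb1, the latent TGF-beta 1 gene, differed by 3.52-fold. The gene on the tumor side was Ptgs2, the inducible cyclooxygenase, at 63.6, 24.3, 67.3 and 60.3 CPM in TAM and 662, 295 and 363 CPM in whole tumors (8.16-fold). Il10 was at 1.25, 0.146, 0.29 and 0.446 CPM in TAM and 1.58, 0.966 and 1.51 CPM in whole tumors, and these groups overlapped. Cd274, which encodes PD-L1, overlapped too, at 95.1, 76.7, 59.8 and 69.2 CPM in TAM and 57.9, 57.5 and 66.8 CPM in whole tumors. Nos2, the inducible nitric oxide synthase, was 2.44-fold higher in tumor, at 38.2, 26.8, 19.6 and 28.3 CPM in TAM and 89.6, 57.7 and 59.5 CPM in whole tumors.

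T cell transcripts were higher in whole tumor than in the sorted cells. Of 21 T cell genes, 19 were higher in tumor and none in TAM (median log2 ratio −2.26), against 24.5% of all kept genes on the tumor side. Cd3e, a chain of the T cell receptor complex, was at 0.119, 0.176, 0.465 and 0.0524 CPM in TAM and 1.91, 1.7 and 1.81 CPM in whole tumors. The TAM values rest on 2 to 16 deposited units a library. Cd8a, a chain of the CD8 co-receptor, was at 0.508, 0, 0.465 and 0.498 CPM in TAM and 3.38, 2.59 and 2.75 CPM in whole tumors (7.91-fold), with no read in TAM library 2. Cd4 was at 0.538, 0.937, 0.61 and 0.97 CPM in TAM and 2.72, 3.32 and 4.98 CPM in whole tumors, and Foxp3, the regulatory T cell factor, at 0.418, 0.644, 0.784 and 0.708 CPM in TAM and 1.62, 1.58 and 2.6 CPM in whole tumors. Cytotoxic and NK cell genes had 12 of 14 members on the tumor side (median log2 ratio −3.23). A gene absent from TAM needs all 3 tumors to pass the minimum, so leaving out any 1 tumor kept 9 of these genes, 7 of them on the tumor side, with medians of −2.45, −2.26 and −1.77 without tumors 1, 2 and 3. With 1 CPM added to the means the count was 9 of 14 and the median −1.18. Gzmb, granzyme B, was at 1.46, 0.703, 1.45 and 1.36 CPM in TAM and 7.24, 12.5 and 15.4 CPM in whole tumors (9.41-fold). Prf1, perforin, was at 0.179, 0.146, 0.174 and 0.21 CPM in TAM and 3.45, 6.68 and 6.49 CPM in whole tumors (31.2-fold). Ifng, interferon-gamma, was at 0.179, 0.0293, 0.116 and 0.105 CPM in TAM and 1.21, 1.74 and 1.47 CPM in whole tumors, and the TAM libraries held 1 to 6 deposited units of it. No TAM library reached the lowest tumor for any of these genes. The T cell list stood in TAM libraries 1 to 4 at medians of 17.1%, 9.72%, 26.2% and 34.9% of its tumor level. The T cell list is partly low-level genes. Its member Cd8b1 passed the minimum through the tumors alone, at 3, 0, 3 and 0 deposited units in TAM. Of the 21, 16 were counted on the deposited units, and 12, with a median of −1.16, when 1 CPM was added to the means.

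**Figure D3:**
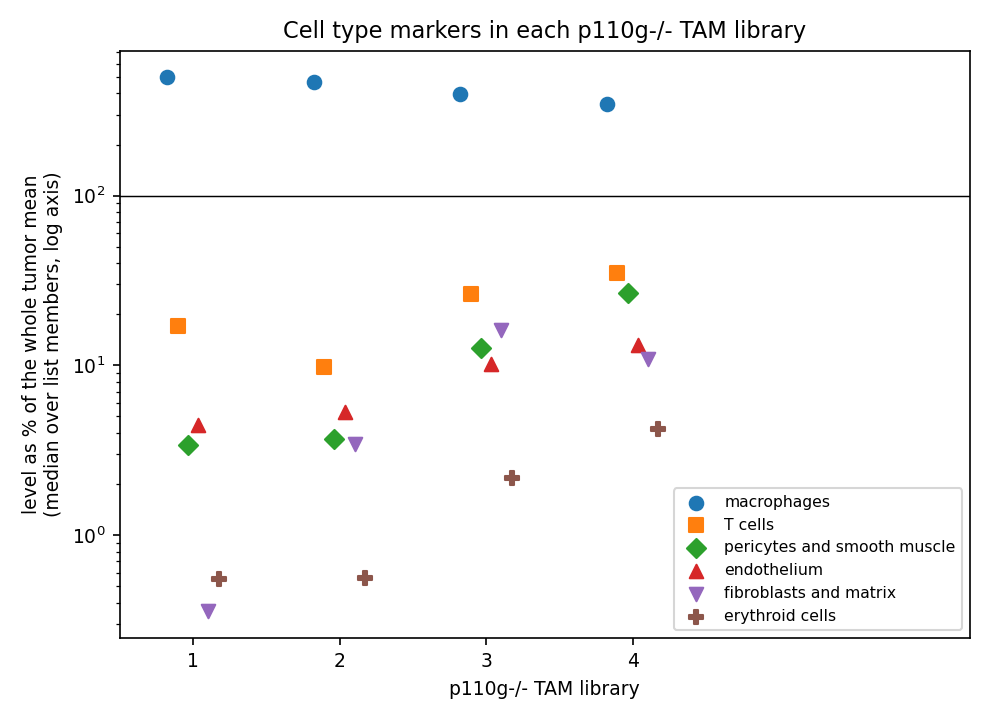
Level of 6 marker lists in each p110g-/- TAM library (x) as a percentage of the mean level in the 3 p110g-/- whole tumors (y, log axis), each point the median over the list's kept members. Macrophage markers stand at 348% to 497%, while fibroblast markers run between 0.356% in library 1 and 16.1% in library 3.

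Stromal and vascular genes were mostly on the tumor side. Of 20 fibroblast and matrix genes, 19 were higher in tumor (median log2 ratio −3.66). Col1a1, a chain of type I collagen, was at 1.02, 4.45, 15.4 and 17.8 CPM in TAM and 558, 219.9 and 316 CPM in whole tumors (37.8-fold). Dcn, the matrix proteoglycan decorin, was at 2.6, 15.7, 72.3 and 57 CPM in TAM and 569.6, 635 and 819 CPM in whole tumors (18.3-fold). In both genes TAM library 1 was the lowest by far. Endothelium had 11 of 15 members on the tumor side, with Cdh5, VE-cadherin, at 2.3, 2.58, 1.34 and 2.28 CPM in TAM and 15.8, 17.6 and 18.8 CPM in whole tumors (8.18-fold). Cldn5, Sox18 and Tek of this list passed the minimum through the tumors alone, with 0 to 8 deposited units in TAM. Pecam1, which leukocytes share with vessels, was at 15.8, 16, 10.9 and 8.68 CPM in TAM and 20.2, 21.8 and 25.4 CPM in whole tumors, without overlap but under 2-fold. Pericyte and smooth muscle genes had 9 of 11 on the tumor side. Pdgfrb, the receptor that holds pericytes to vessels, was at 1.14, 1.96, 7.11 and 5.9 CPM in TAM and 47.5, 46.3 and 48.6 CPM in whole tumors (11.8-fold). Cspg4, the NG2 proteoglycan, was the member higher in TAM (2.79-fold). The amount of these transcripts in TAM varied with the library. Fibroblast markers stood at 0.356%, 3.46%, 16.1% and 10.9% of their tumor level in TAM libraries 1 to 4, and endothelial markers at 4.47%, 5.31%, 10.1% and 13.1%. Without TAM libraries 3 and 4 the fibroblast median was −5.68, and 19 of 20 genes were again on the tumor side. The part of carried-over tumor RNA in the values of libraries 3 and 4 was not tested.

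Carcinoma genes divided. Krt8 and Krt18, the paired keratins of simple epithelium, were on the tumor side. Krt8 was at 1.37, 5.77, 45.6 and 31.3 CPM in TAM and 188, 175 and 202 CPM in whole tumors (8.97-fold). Krt18 was at 1.4, 6.79, 39.3 and 27.7 CPM in TAM and 178, 176 and 190.4 CPM in whole tumors (9.66-fold). Both were high in TAM libraries 3 and 4 relative to 1 and 2. Egfr, the epidermal growth factor receptor, was 7.49-fold higher in tumor. Yet 3 of the 12 genes of this list were higher in TAM. Cdh1, E-cadherin, was at 62.9, 111, 52.3 and 60.1 CPM in TAM and 3.45, 5.99 and 8.57 CPM in whole tumors (11.9-fold), and Nt5e, the CD73 ectoenzyme that makes adenosine, at 171, 153, 184 and 151 CPM in TAM and 24.6, 30.4 and 35.7 CPM in whole tumors (5.45-fold). Epcam, at a log2 ratio of 1.65, was the third. Epcam rests on low values, 0.538, 1.14, 0.552 and 0.603 CPM in TAM and 0.184, 0.232 and 0.264 CPM in whole tumors.

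Genes of neutrophils, mast cells and blood were also on the tumor side. S100a9, an abundant calcium-binding protein of neutrophils, was at 1.46, 0.234, 3.02 and 2.44 CPM in TAM and 213, 116 and 161 CPM in whole tumors (91.3-fold). S100a8, its partner, was at 7.95, 2.96, 5.63 and 6.11 CPM in TAM and 115, 65.3 and 97.2 CPM in whole tumors. Neutrophils are Gr1+, so the sort was set to leave them out, and 5 of 9 kept neutrophil genes were higher in tumor, none in TAM. Retnlg of this list passed the minimum through the tumors alone, at 2, 0, 1 and 4 deposited units in TAM. Mast cell genes had 5 of 7 on the tumor side, and 3 of the 5 then kept when any 1 tumor was left out. One was Cpa3, mast cell carboxypeptidase, at 0.0597, 0.0293, 0.029 and 0.21 CPM in TAM and 11.9, 4.87 and 14.7 CPM in whole tumors. Its TAM values rest on 1 to 8 deposited units. Haemoglobin transcripts of blood differed between the tumors. Hba-a2 was at 0.358, 0.322, 2.41 and 2.7 CPM in TAM and 87.4, 305 and 100.4 CPM in whole tumors, and tumor 2 was again the highest in Hbb-bt, at 27.1, 127 and 33.3 CPM. Reads shared by the near-identical globin copies make single values uncertain.

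Dendritic cell and monocyte lists were mixed. Of 12 dendritic cell genes, 5 were higher in TAM and 2 in tumor, where 11.3% and 24.5% of all kept genes were. Siglech, 1 of the 2, passed the minimum through the tumors alone, at 7, 2, 4 and 8 deposited units in TAM. Ccr7, which guides mature dendritic cells to lymph nodes, was at 15.6, 9.99, 26.7 and 33.9 CPM in TAM and 6.1, 4.67 and 5.92 CPM in whole tumors (3.87-fold), and Itgax, the CD11c integrin, at 185, 242, 115 and 121 CPM in TAM and 24.4, 41.1 and 51.1 CPM in whole tumors. Cd209a, the lectin DC-SIGN, was at 42.8, 16.5, 16.2 and 20.6 CPM in TAM and 4.63, 3.59 and 5.43 CPM in whole tumors, with library 1 the highest. Clec9a, a marker of cross-presenting dendritic cells, which mostly lack CD11b, was at 1.7, 0.673, 3.02 and 2.99 CPM in TAM and 16.2, 19.3 and 18.1 CPM in whole tumors (8.54-fold higher in tumor). Batf3 and Xcr1, genes of the same cells, did not share its side. Batf3 was higher in TAM, at 106, 85, 58 and 105 deposited units against 20, 23 and 27 in tumors. Xcr1 overlapped, at 70, 24, 19 and 6 units in TAM and 20, 21 and 14 in tumors. Among 10 monocyte genes, Ms4a4c was at 121, 36.4, 37 and 33 CPM in TAM and 9.66, 11.6 and 20.5 CPM in whole tumors. Fn1, fibronectin, a matrix gene that monocytes also make, was higher in TAM (2.12-fold), at 9517, 8194, 6062 and 5748 CPM in TAM and 2729, 3758 and 3979.8 CPM in whole tumors.

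Cytokine genes were more often on the tumor side: 13 of 25 were higher in tumor and 4 in TAM (24.5% and 11.3% of all kept genes). Csf2, Il23a and Ifng, among the 13, passed the minimum through the tumors alone and could be counted only there. In TAM they held 0, 0, 3 and 0 (Csf2), 2, 2, 3 and 4 (Il23a) and 6, 1, 4 and 4 (Ifng) deposited units. Csf1, the macrophage growth factor, was at 3.94, 9.96, 49.4 and 29.2 CPM in TAM and 281, 208 and 201 CPM in whole tumors (9.93-fold), and TAM library 1 held the least. Il33, an alarmin of stroma and epithelium, was 9.99-fold higher in tumor. Ebi3, a chain of IL-27 and IL-35, was 4.96-fold higher in TAM. Tnf overlapped between the groups, at 56.3, 37.5, 27.3 and 28.3 CPM in TAM and 31.4, 24.4 and 27.2 CPM in whole tumors, and Il1b did so too, at 347, 212, 317 and 538 CPM in TAM and 601, 378 and 523 CPM in whole tumors. Chemokines were split, with 7 of 23 higher in TAM and 8 in tumor (11.3% and 24.5% of all kept genes). Among the 7 was Ccl17, which passed the minimum through TAM alone. Ccl6 and Ccl9, CC chemokines of myeloid cells, were 5.03-fold and 5.58-fold higher in TAM. Cxcl1, a neutrophil chemokine, was at 25.4, 14.9, 43.9 and 44.5 CPM in TAM and 296, 98.6 and 101 CPM in whole tumors (5.14-fold), and Cxcl12, a stromal chemokine, at 0.0597, 0.146, 0.406 and 0.603 CPM in TAM and 19.6, 7.53 and 8.23 CPM in whole tumors (38.8-fold).

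A list of 46 ligand and receptor pairs was read for which side each partner lay on. Both partners were in the tables for 44 pairs. In 11 the ligand and the receptor were counted on opposite sides, in 3 both were on the tumor side, and in none both were on the TAM side. Of all kept genes, 11.3% were counted in TAM and 24.5% in tumor. The number of pairs expected from these shares was not computed. The ligand was in the tumor and the receptor in TAM in 5 pairs. They were Csf1 and Il34 with Csf1r, Csf2 with Csf2ra, Cx3cl1 with Cx3cr1, and Ifng with Ifngr1. Csf2 and Ifng, with at most 3 and 6 deposited units in a TAM library, passed the minimum through the tumors alone. They could therefore be counted only on the tumor side. Il34, the second ligand of Csf1r, was at 0.568, 1.79, 6.91 and 4.12 CPM in TAM and 31.7, 31.7 and 30.7 CPM in whole tumors (9.37-fold). Csf2ra, the GM-CSF receptor alpha chain, was at 273, 237, 234 and 244 CPM in TAM and 21, 32.2 and 33 CPM in whole tumors (8.6-fold), while Csf2 itself held 0, 0, 3 and 0 deposited units in TAM and 45, 22 and 17 in tumors. Ifngr1 was at 279.8, 221, 226 and 227 CPM in TAM and 107, 122 and 125 CPM in whole tumors, just past the 2-fold limit. Its log2 ratio was 0.93 without TAM library 1 and 0.95 without tumor 1, so it was not counted then, and neither was its pair with Ifng.

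The ligand was in TAM and the receptor in the tumor in the other 6 pairs. They were Cxcl16 with Cxcr6, Cd80 with Ctla4, Icosl with Icos, Pdcd1lg2 with Pdcd1, Il18 with Il18r1, and Pdgfb with Pdgfrb. Cxcl16, which attracts and holds T cells that carry Cxcr6, was at 600.4, 658, 459 and 496 CPM in TAM and 75.6, 126 and 137 CPM in whole tumors (4.9-fold). Cxcr6 was at 0.0896, 0.146, 0.406 and 0.419 CPM in TAM and 1.62, 1.62 and 1.51 CPM in whole tumors (5.96-fold). Cd80, a costimulatory ligand of CD28 and CTLA-4, was at 44.9, 38.9, 76.2 and 74.7 CPM in TAM and 7.49, 7.69 and 9.02 CPM in whole tumors (7.27-fold), and Ctla4 at 0.358, 0.176, 1.65 and 1.57 CPM in TAM and 3.34, 3.94 and 6.23 CPM in whole tumors. Pdcd1lg2, which encodes PD-L2, was at 4.15, 6.27, 6.5 and 4.93 CPM in TAM and 0.992, 2.05 and 2.23 CPM in whole tumors, and Pdcd1, PD-1, at 0.597, 0.146, 1.19 and 0.97 CPM in TAM and 2.42, 1.66 and 2.34 CPM in whole tumors. Across the whole lists, 7 of 15 costimulatory and checkpoint ligands were higher in TAM and none in tumor. Of 14 receptors, 6 were higher in tumor (2 when 1 CPM was added to the means) and 2 in TAM, the latter Havcr2 (4.23-fold), which encodes TIM-3, and Cd200r1 (4.32-fold). The receptors' share in TAM was close to the 11.3% of all kept genes, of which 24.5% were higher in tumor. The pair Cxcl9 and Cxcr3 was counted on neither side. Cxcl9 was at 232, 187, 110.5 and 114 CPM in TAM and 47.7, 87.3 and 107 CPM in whole tumors. These groups did not overlap, and the log2 ratio of 0.996 lay just under the 2-fold limit. Cxcr3 was at 0.657, 1.23, 0.61 and 0.498 CPM in TAM and 0.882, 0.657 and 1.51 CPM in whole tumors.

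**Figure D4:**
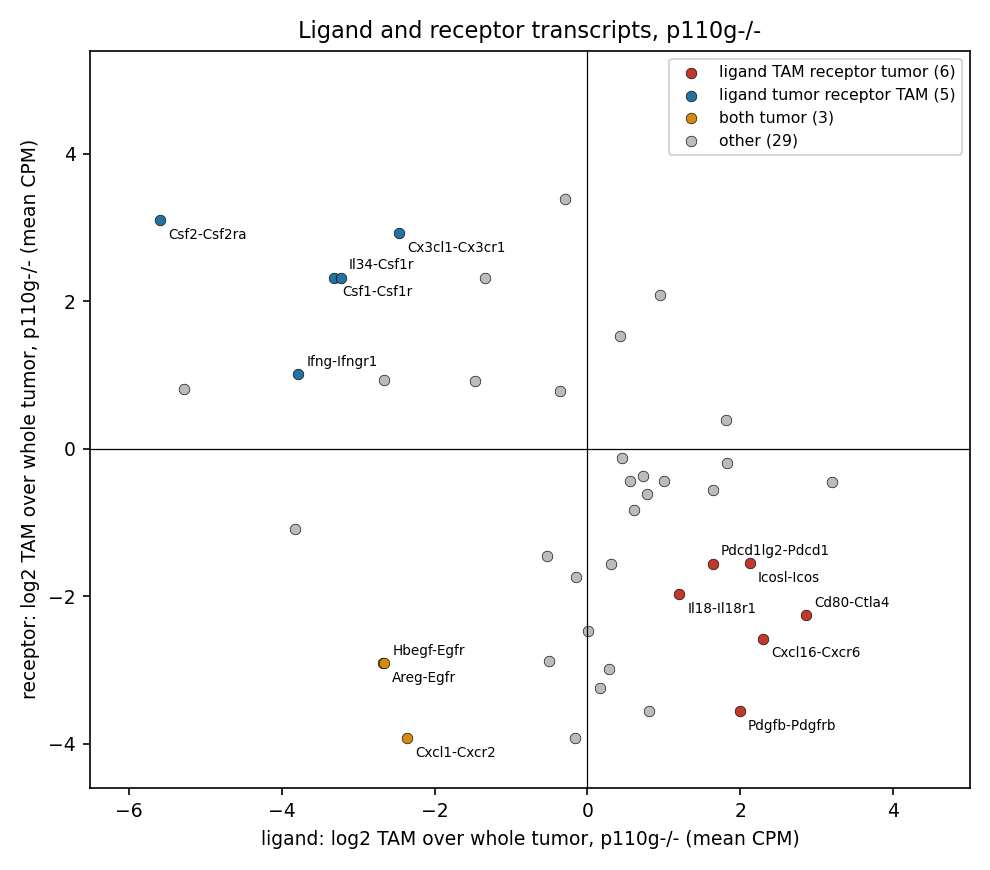
Log2 ratio of mean CPM in p110g-/- TAM over whole tumor for the ligand (x) and receptor (y) of 43 pairs; Cd40lg with Cd40, at 0 in TAM, and 2 pairs that were not measured are left out. Red pairs have the ligand higher in TAM and the receptor in tumor (6), blue pairs the reverse (5), and orange pairs both in tumor (3).

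Lists of general cell functions moved less. Proliferation genes had 16 of 24 members higher in tumor and none in TAM (median log2 ratio −1.11). Top2a, the topoisomerase of dividing cells, was at 80.7, 213, 147 and 115 CPM in TAM and 462, 471 and 375 CPM in whole tumors (3.14-fold), and Cdk1 at 24.8, 68.6, 46.5 and 39.7 CPM in TAM and 149.9, 137 and 127 CPM in whole tumors. Mki67 did not overlap but stayed under 2-fold, at 97.9, 202, 119.5 and 111 CPM in TAM and 219, 270.5 and 223 CPM in whole tumors. The count on the tumor side was 7 with median-of-ratios factors and 6 on the deposited units. Cytosolic ribosomal protein genes had 5 of 20 on the tumor side, close to the 24.5% of all kept genes, and 2 under either scaling. Rpl13 was 3.82-fold higher in tumor. Oxidative phosphorylation had no counted gene, with a median of −0.30 that turned to 0.03 and 0.10 under these scalings. Of 24 lysosome and lipid handling genes, 7 were higher in TAM and 1 in tumor, and 13 were higher in TAM on the deposited units. Complement genes had 6 of 15 higher in TAM and 4 in tumor, and B and plasma cell genes 1 and 2 of 7. The tumor-side share of both lists and the TAM-side share of B and plasma cell genes were close to those of all kept genes (24.5% and 11.3%). Cfd of the complement list passed the minimum through the tumors alone, at 2, 1, 1 and 2 deposited units in TAM. In the hypoxia list Adm, the vasodilator adrenomedullin, was at 2.9, 3.78, 8.65 and 10.3 CPM in TAM and 143, 90.7 and 88.3 CPM in whole tumors (16.8-fold higher in tumor), and Slc16a3, a lactate exporter, was 2.93-fold higher in TAM. Immediate-early genes, which tissue dissociation can induce, had 4 of 22 members higher in TAM (9 with median-of-ratios factors) and 2 in tumor. Of all kept genes, 11.3% and 24.5% were. Fos was among the 4, at 2213, 1736, 1255 and 1379 CPM in TAM and 578, 492 and 521 CPM in whole tumors. In WT, 0 of the 22 were higher in TAM and 5 in tumor (median log2 ratio −0.30). Of all genes kept in WT, 13.1% and 22.2% were, so the 5 in tumor were close to that share. Only the sorted cells were made into a cell suspension, per the labels, and the part of dissociation in these values was not tested.

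The largest ratios among genes with at least 50 CPM on the higher side summarise the contrast. On the TAM side, after the Y-linked Eif2s3y and Ddx3y, stood Cdh1, Mgl2, Spint1, Ccr2, Ltb4r1, Fcrlb, Bcl2a1d and Csf2ra. Spint1, an inhibitor of serine proteases, was at 52.2, 196, 79.6 and 77.5 CPM in TAM and 4.74, 8.54 and 14.3 CPM in whole tumors (11-fold). Ltb4r1, the leukotriene B4 receptor, was at 72, 85.8, 53.9 and 59.2 CPM in TAM and 6.87, 5.22 and 8.6 CPM in whole tumors (9.82-fold). Fcrlb, an Fc receptor-like gene, differed by 9.46-fold. On the tumor side were 4 globin genes, S100a9, and the matrix genes Col1a2, Col1a1, Col5a2, Postn and Igfbp3. Col1a2 was at 0.627, 3.07, 6.13 and 8.83 CPM in TAM and 411, 135 and 209 CPM in whole tumors (54-fold), and Postn, periostin, at 0.209, 1.08, 3.4 and 4.61 CPM in TAM and 83.3, 53.3 and 76.3 CPM in whole tumors (30.5-fold). Igfbp3, a binder of insulin-like growth factors, was at 0.119, 1.35, 1.45 and 2.23 CPM in TAM and 58.1, 45.1 and 50.5 CPM in whole tumors (39.8-fold). For each of these 3 genes TAM library 1 held under 1 CPM.

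The division between macrophages and tumor was then compared with that in WT mice, which asks whether the division differs with the loss of PI3K gamma. This difference of within-table differences could be tested (limma on log2 of the deposited value + 1, 14 libraries). Of 12821 genes, 5 had a higher TAM to tumor contrast in p110g-/- (0.039%) and 13 a lower one (0.101%), and 835 had an unadjusted p under 0.05. Same-numbered TAM libraries of the genotypes deviated together, and with the number as a block in TAM only the counts were 106 (0.827%) and 310 (2.42%), including all 18. The 13 lower genes were Iigp1 and Gm4951 of the interferon-gamma list, Ifi44 and Bst2 of the type I interferon list, Psmb9 of the MHC class I list and Cfb of the complement list, with Apol9b, H2-Q6, H2-T9, Ifi47, Gm4841, Ccnd2 and Cnn2 outside these lists. Leaving out 1 library gave 0 to 16 higher and 0 to 79 lower genes. Of the 14 libraries, WT TAM 3 was the only one whose omission left both counts within 1.5 times. Both counts were 0 without p110g-/- tumor 2 (609 genes at an unadjusted p under 0.05), without WT tumor 2 (642) and without TAM libraries 3 and 4 of both genotypes (961).

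Interferon-gamma response genes were divided differently in the 2 genotypes. In WT, 20 of 23 were higher in TAM (median log2 ratio 2.41), where 13.1% of all genes were. In p110g-/- 2 of 23 were, Irf8 and Ciita, close to the 11.3% of all kept genes, with a median of 0.30. The count was 5 on the deposited units and with median-of-ratios factors (medians 0.68 and 0.61). The contrast was lower in p110g-/- for 22 of 23 members. Of them 2 passed the test, and 19 with the block in TAM. Iigp1, an interferon-inducible GTPase, was at 54.6, 32.8, 24.7 and 23.4 CPM in p110g-/- TAM and 41.5, 35.6, 25.3 and 39.1 CPM in WT TAM. In whole tumors it was at 31.6, 55.3 and 59.2 CPM in p110g-/- and 4.88, 5.91 and 7.83 CPM in WT. So the TAM overlapped between genotypes, and the p110g-/- tumors lay far above the WT tumors (difference of the log2 contrast −2.97, SE 0.42, limma adjusted p = 0.027).

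The same arrangement held for the list: in 20 of 23 genes every p110g-/- tumor was above every WT tumor, against 21.1% of all kept genes, and in none were the p110g-/- TAM all below the WT TAM (2.32% of all genes). Cxcl10, a chemokine for Cxcr3+ T cells, was at 127, 105, 63.9 and 84 CPM in WT TAM and 13.1, 22.1 and 23.2 CPM in WT tumors, and at 123, 84.9, 43.1 and 49.5 CPM in TAM and 38.7, 53.5 and 61.1 CPM in whole tumors of the knockout. Its contrast missed the threshold without the block (adjusted p = 0.308) and passed with it (0.00933). Cxcl9 differed in that both sides were higher in p110g-/-. WT TAM held 81.8, 71.8, 49 and 87.6 CPM and WT tumors 3.48, 7.19 and 12.2 CPM of it (adjusted p = 0.224, and 0.0477 with the block). The libraries mattered here. Without TAM libraries 3 and 4, 9 of 23 genes were higher in TAM in the knockout and the median was 0.72, and without libraries 1 and 2 it was −0.27.

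Type I interferon response genes differed mainly in level within the sorted cells. In WT 19 of 21 were higher in TAM (median log2 ratio 2.81), and in p110g-/- 6 were, with 1 in tumor (median 0.81). Of all kept genes, 13.1% were higher in TAM in WT, and 11.3% in TAM and 24.5% in tumor in p110g-/-. Under the 3 other scalings the 6 became 9 to 13, and 12 without TAM libraries 3 and 4. In 13 of 21 genes every p110g-/- TAM library was below every WT TAM library, against 2.32% of all kept genes, and in 6 the p110g-/- tumors were all above the WT tumors (21.1%). On the deposited units these 2 counts were again 13 (1.89%) and 6 (15.6%), and the interferon-gamma list again had 20. Irf7, the transcription factor that amplifies the type I response, was at 108, 53.5, 47.7 and 36.8 CPM in p110g-/- TAM and 342, 269, 187 and 216 CPM in WT TAM. Tumors held 14.5, 19.8 and 24 CPM in p110g-/- and 13.3, 15.6 and 20.1 CPM in WT, so the lower values lay in the sorted cells (adjusted p of the contrast = 0.0827, and 0.00143 with the block). Ifi44 was at 1.7, 0.937, 1.05 and 0.76 CPM in p110g-/- TAM and 7.13, 8.14, 6.98 and 9.63 CPM in WT TAM. With 2.87, 5.14 and 4.79 CPM in p110g-/- tumors and 3.12, 2.13 and 2.28 CPM in WT tumors, its log2 ratio was −1.94 in the knockout and 1.67 in WT (difference −3.50, SE 0.38, limma adjusted p = 0.00875).

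**Figure D5:**
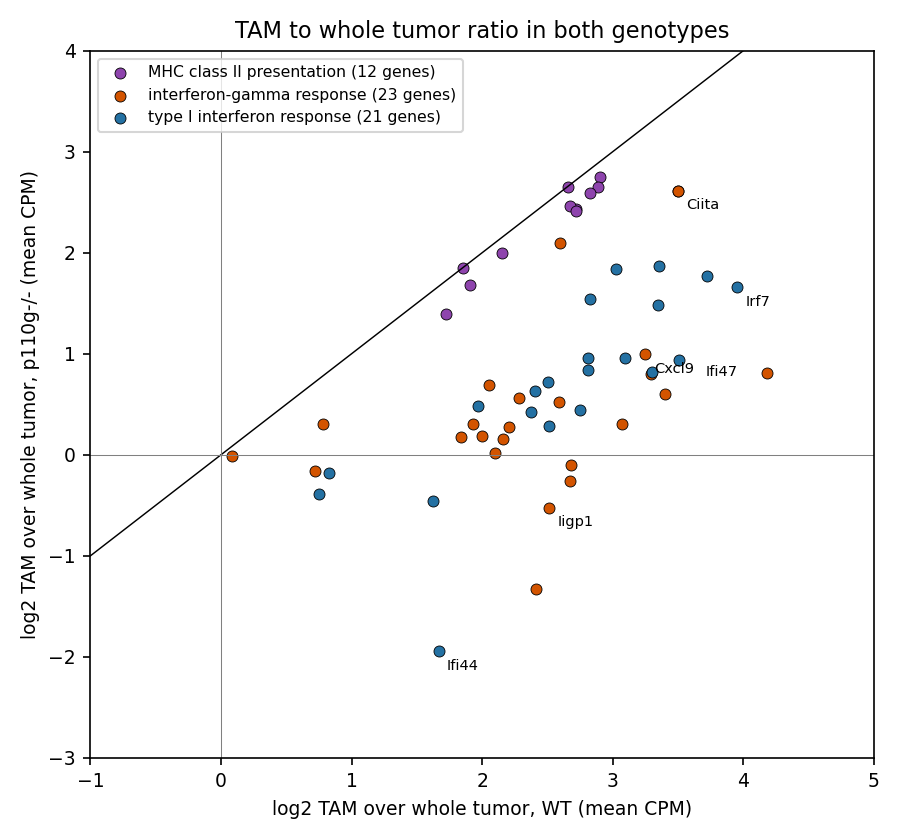
Log2 ratio of mean CPM in TAM over whole tumor in WT (x) and p110g-/- (y) mice for the kept genes of 3 lists, with the line of equality. MHC class II genes lie near the line (medians 2.70 and 2.45), and interferon-gamma and type I interferon genes lie mostly below it (medians 2.41 and 0.30, and 2.81 and 0.81).

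MHC class I presentation had 3 of 13 genes higher in TAM in p110g-/- (11.3% of all kept genes) and 8 in WT (13.1%). All 13 had every p110g-/- tumor above every WT tumor, against 21.1% of all kept genes. Psmb9, an immunoproteasome subunit, was at 74.2, 68.4, 52.4 and 54.8 CPM in TAM and 21.5, 27.9 and 25.1 CPM in whole tumors of the knockout and at 84.7, 74.2, 64.1 and 72.6 CPM in TAM and 9.02, 10.3 and 12.2 CPM in tumors of WT (difference of the log2 contrast −1.39, SE 0.20, limma adjusted p = 0.027). For MHC class II, 12 of 12 genes were higher in TAM in both genotypes, none was called in the contrast with or without the block, and no gene had non-overlapping genotypes on either side.

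T cell and cytotoxic genes stood at different levels in the tumors of the 2 genotypes. In 17 of 21 T cell genes and 12 of 14 cytotoxic genes every p110g-/- tumor was above every WT tumor (21.1% of all kept genes), and no T cell gene had TAM that did not overlap between genotypes. On the deposited units the counts were 15 and 11 (15.6%). Cd8a was at 0.33, 0.294 and 0.58 CPM in WT tumors and 0.466, 0.269, 0.18 and 0.678 CPM in WT TAM, so the tumors lay above the sorted cells in the knockout and overlapped with them in WT. Counted genes on the tumor side were 19 of 21 in p110g-/- and 5 of 21 in WT. Of all genes kept in each genotype, 24.5% and 22.2% were, so the WT count was close to its share. No T cell gene was called in the contrast, with or without the block. Prf1, at 0.262, 0.299, 0.421 and 0.913 CPM in WT TAM and 1.25, 1.61 and 1.7 CPM in WT tumors, had the lower contrast in the knockout (adjusted p = 0.0827, and 0.00636 with the block).

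Genes with a higher contrast in p110g-/- were Raet1e, Ptgfrn, Rgs18, Gfra2 and Cacna1a. Raet1e, a ligand of the receptor NKG2D, was at 83, 54, 38.5 and 43.5 CPM in p110g-/- TAM and 16.4, 12.1, 14.9 and 13.9 CPM in WT TAM, while tumors held 37.5, 35.9 and 39.3 CPM and 39.1, 37.4 and 35.2 CPM (difference of the log2 contrast 1.96, SE 0.28, limma adjusted p = 0.027). Reads shared with its close relatives make its value uncertain. Ptgfrn, a membrane partner of tetraspanins, was at 64.3, 74.8, 57.6 and 54.5 CPM in p110g-/- TAM and 43.2, 34.1, 34.6 and 27 CPM in WT TAM, with 64, 62 and 78.1 CPM and 104, 90.7 and 88.7 CPM in tumors (difference 1.44, SE 0.21, limma adjusted p = 0.027). Rgs18, a regulator of G protein signalling in blood cells, differed on the tumor side. Its TAM held 10.6, 9.52, 10.9 and 11.4 CPM in p110g-/- and 13, 14, 13.6 and 10.4 CPM in WT, and the tumors 1.32, 1 and 1.36 CPM and 3.56, 4.51 and 5.04 CPM. Nt5e had a higher contrast in the knockout that missed the threshold without the block (adjusted p = 0.0827) and passed with it (0.00843). WT TAM held 118, 59, 60.1 and 44.1 CPM and WT tumors 49.8, 46.6 and 34.5 CPM of it.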

How the data were processed

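RNA-seq libraries of sorted CD11b+Gr1- cells and of whole tumor were used. Reads were aligned with Bowtie2 to mm9 and processed with DESeq, per the submitters' processing notes, which give no versions. The authors deposited normalized counts as whole numbers (a score here, since they are no longer raw counts), in 1 table per kind of library. A further deposited column, whose meaning is not stated, was not used. Spacing of low values gave each library's units per read, and so the estimated reads. Each deposited value was divided by its library's column total to give CPM. Genes kept had at least 10 units in 3 or more of the 7 libraries. No test was run across the tables. The difference of the contrast between genotypes was tested with limma 3.58.1 in R 4.3.3 on log2(value + 1) with Benjamini-Hochberg adjustment at 0.05, over genes with 10 units in 3 or more of 14 libraries. Fold changes on that scale understate the change of low genes. The call rule and the limma fit were tested on simulated data. Python 3.11.15, numpy 2.4.6, pandas 2.3.3 and scipy 1.17.1 were used, and figures were drawn with matplotlib 3.10.9.

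Same-numbered TAM libraries of the genotypes deviated together (correlations of deviations from group means 0.836, 0.423, 0.744 and 0.651), and tumors less so (0.088, 0.071 and 0.172). The number was therefore used as a block in TAM only, an alternative chosen after seeing the data. p-values measure the spread between these libraries, which may be technical. The members and gene lists were chosen with earlier results of these data known. Named genes were the fixed panel, up to 4 counted members of each list with the largest ratio and at least 10 CPM on the higher side, the 10 largest and 10 smallest ratios among genes with at least 50 CPM, the 5 smallest adjusted p in each direction of the genotype test with at least 10 CPM, and ligand and receptor pairs counted in opposite directions. Other genes were named after their values were seen. A few results are not reported here, the ligand and receptor pairs that need them among them. Alternatives were other scalings, minimums, fold limits, pseudocounts and leaving out libraries.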

Additional observations from a re-analysis of the deposited data

Results flagged for a closer look

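In the p110g-/- TAM, 14 named genes had a library whose gap to the nearest other exceeded Dixon's 95% critical value for 4 libraries. Chance alone sets apart about 1 group in 20, and 210 groups were examined. Library 1 stood apart in Cd209a (42.8 CPM in library 1, the others 16.2 to 20.6), Ddx3y (106 CPM in library 1, the others 62.9 to 69.5), Ifngr1 (279.8 CPM in library 1, the others 221 to 227), Ms4a4c (121 CPM in library 1, the others 33 to 37), Oas2 (86.7 CPM in library 1, the others 23 to 29.6), Plaur (215 CPM in library 1, the others 346 to 363) and Uty (25.7 CPM in library 1, the others 16.5 to 17.9). Library 2 stood apart in Cd8a (0 CPM in library 2, the others 0.465 to 0.508), Gzmb (0.703 CPM in library 2, the others 1.36 to 1.46), H2-Ab1 (2036 CPM in library 2, the others 1113 to 1245), H2-DMb1 (364 CPM in library 2, the others 178 to 192), Lyz2 (20855 CPM in library 2, the others 23745 to 24266) and Ptgs2 (24.3 CPM in library 2, the others 60.3 to 67.3). Library 4 stood apart in Cnn2 (144 CPM in library 4, the others 164 to 166).

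The contrast of TAM with whole tumor differed between genotypes by the test of the difference itself (limma, adjusted p under 0.05) for 18 genes. Differences are log2, p110g-/- minus WT. They were above 0 for Cacna1a 1.98, Gfra2 2.04, Ptgfrn 1.44, Raet1e 1.96 and Rgs18 1.63. They were below 0 for Apol9b −2.95, Bst2 −1.05, Ccnd2 −0.93, Cfb −2.45, Cnn2 −0.46, Gm4841 −3.08, Gm4951 −2.83, H2-Q6 −2.31, H2-T9 −0.995, Ifi44 −3.50, Ifi47 −2.67, Iigp1 −2.97 and Psmb9 −1.39. Of the lower genes, Apol9b, Bst2, Cfb, Gm4841, Gm4951, H2-T9, Ifi44 and Ifi47 fell outside the naming rule, as did Cacna1a and Gfra2 of the higher ones, and entered the text because they passed this test. H2-Q6, H2-T9, Apol9b and Raet1e belong to families of near-identical genes, so their values are uncertain.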

How the results depend on the processing

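Counts of genes higher in TAM and in tumor were within 1.5 times the reported 1442 and 3128 for every alternative run except 3. On the deposited units 2199 genes were higher in TAM. A limit of 4-fold gave 479 and 1504, and one of 1.5-fold gave 4838 on the tumor side. Leaving out 1 library gave 1359 to 1547 and 2968 to 3274. The genotype test depended more on its settings. With the replicate block (number within each kind of library) it called 55 genes higher and 280 lower, with the block in TAM only 106 and 310, on log2(CPM + 1) 9 and 39, and with limma's sample quality weights 897 and 995. Leaving out 1 library gave 0 to 16 and 0 to 79, and leaving out TAM libraries 3 and 4 of both genotypes gave 0 and 0. The cause was not tested. Of the 18 genes called, all 18 were called under both blocks. No gene counted or called changed direction under the alternatives run, but 9 list medians changed sign under some alternative. With the scaling these were oxidative phosphorylation, hypoxia, angiogenic factors (−0.09 to 0.15, 0.25 and 0.32) and keratinocytes. Without TAM libraries 1 and 2 they were the interferon-gamma list (−0.27), chemokines (0.50 to −0.13), chemokine receptors (0.41 to −0.17), B and plasma cells (0.22 to −0.34) and angiogenic factors (0.04). With a minimum of 50 units adipocytes went from −1.27 to 0.59 and B and plasma cells to −1.33. Low genes are limited by depth, since 3 reads were worth 0.0692 to 0.152 CPM, and differences between TAM and tumor have no test at this design.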
